A study of Mus musculus with 6 samples.

Results

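The genes of the actin and myosin machinery were followed across 3 culture conditions of C17.2 cells, an established mouse line of neural stem and progenitor cells immortalised with v-myc. Members were chosen by name: actins (Actb, Actg, Acta), alpha-actinins (Actn), actin-related proteins and the Arp2/3 complex (Actr, Arpc), tropomyosins (Tpm), myosin light and heavy chains (Myl, Myh), unconventional myosins (Myo), calponins (Cnn), transgelins (Tagln), cofilins (Cfl), profilins (Pfn), filamins (Fln), and Vcl, Cald1, Gsn and Srf. This rule found 46 of the 7171 loci in the deposited table, carrying 47 gene names and 147 assembled transcripts, of which 120 have a gene name. Myl12a and Myl12b share 1 locus, since the authors' transcript assembly joined these neighbouring genes. A locus is a group of overlapping assembled transcripts, and its level is the sum of FPKM (fragments normalised to transcript length and library size) over the transcripts listed for it. All 46 loci passed the filter on low values used before testing, at least 1 FPKM in 2 or more libraries. Cnn1, Myl9, Myh10 and Srf are not analysed here.

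Heme-treated cells, cells after neural induction and control cells were labelled with 2 replicates each, all of this 1 line, with a CD1 x C57BL/6 background and no further allele named. Heme-treated cells received heme at a dose and for a time not given in the sources used here. Neural induction cells were kept in Knockout DMEM with GlutaMAX, the N2 supplement and the neurotrophin BDNF, and controls in DMEM/F12 with fetal bovine serum; which medium held the heme-treated cells is not given. The design asks what either culture condition does to gene expression in these progenitors, and here that question is put to the contractile and cytoskeletal genes.

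Actin monomers polymerise into filaments that profilin feeds, cofilin severs and the Arp2/3 complex branches. Tropomyosins, caldesmon and calponins coat filaments, filamins and alpha-actinins link them, and non-muscle myosin II pulls on them, which sets cell shape, adhesion and migration in neural progenitors as in other cells. Many of these genes are known targets of serum response factor (SRF), whose coactivators are held back by free actin monomers.

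The second heme column held no independent measurement. Each of its 13963 values above 0 was 1.25 to 1.50 times the first heme value, and the same 1150 transcripts were at 0 in both, whereas 1257 transcripts were at 0 in only 1 of the 2 controls. The columns were counted as 1 sample, so the heme group had n = 1, the neural induction and control groups n = 2 each, and the lone heme library was assumed to vary like the others. Mapped sequence amounted to 4.14 to 4.56 gigabases per library. Over all loci control replicate 2 stood apart. It differed from control replicate 1 by a median of 0.21 log2 units (absolute) over 7039 loci and 0.10 over the 46 members. The heme library differed from control replicate 1 by 0.089 and 0.052. Over the members control replicate 2 was no farther than control replicate 1 from the neural induction libraries. Control replicate 2 differed from these by 0.072 and 0.090, and control replicate 1 by 0.11 and 0.090. Over the members the heme library differed from control replicate 2 by 0.16. Of the neural progenitor markers 4 of 10 were listed (Vim, Nes, Sox2, Hes1). Sox2 and Vim had their smallest values in control replicate 2 (Sox2 was at 18.6 FPKM under heme, 19.8 and 18.9 after neural induction, and 18.7 and 13.6 in controls). Nes and Hes1 did not: Nes was at 128 FPKM under heme, 123 and 108 after neural induction, and 132 in each control, and Hes1 at 16.9 FPKM under heme, 15.2 and 18.4 after neural induction, and 13.8 and 15.5 in controls. Fibroblast markers were listed for 5 of 9 genes, with sums of 3723 FPKM under heme, 3642 and 3938 after neural induction, and 3777 and 2914 in controls. Smooth muscle and pericyte markers were listed for 2 of 10 genes (Smtn and Pdgfrb; sums of 58.5 to 82.4 FPKM, the lowest in control replicate 2), skeletal and cardiac muscle markers for 0 of 13 and astrocyte markers for 0 of 6. Oligodendrocyte markers were listed for 2 of 6 genes (sums of 105 to 121 FPKM) and neuron markers for 2 of 11. The neuron markers summed to 32.6 FPKM under heme, 23.2 and 29.0 after neural induction, and 23.3 and 21.8 in controls. Proliferation markers (4 of 4) summed to 277, 253 and 288, and 284 and 193 in that order. Heme and NRF2 response genes such as Hmox1 (5 of 5) summed to 235, 284 and 226, and 212 and 523. The part of these lists in the results was not tested.

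The machinery took a nearly constant share of the transcriptome. The 46 loci together made up 2.65% of all listed FPKM in the heme library, 2.54% and 2.60% after neural induction, and 2.65% and 2.47% in controls. By role, the actins summed to 2189 FPKM under heme, 2147 and 2105 after neural induction, and 2081 and 2179 in controls, and the 10 tropomyosin and filament-coating loci to 2555 under heme, 2393 and 2532 after neural induction, and 2537 and 2279 in controls. Levels differed widely between genes, from cofilin Cfl1, the light chain Myl6 and the smooth-muscle actin Acta2 at the top to Tagln and the unconventional myosin Myo6 at the bottom, while most genes held close to their own level. In such bulk samples a change in the mix of cells and a change in RNA per cell cannot be told apart. The ratio of the highest to the lowest of the 5 libraries had a median of 1.23 over the 46 members, against 1.33 over all 7039 loci tested and 1.28 over the 5983 with a mean of at least 5 FPKM. Members were also more abundant than most loci, with a median mean level of 87.4 FPKM against 18.1. These are descriptions, and the weight of abundance in the smaller spread was not tested.

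**Figure D1:**
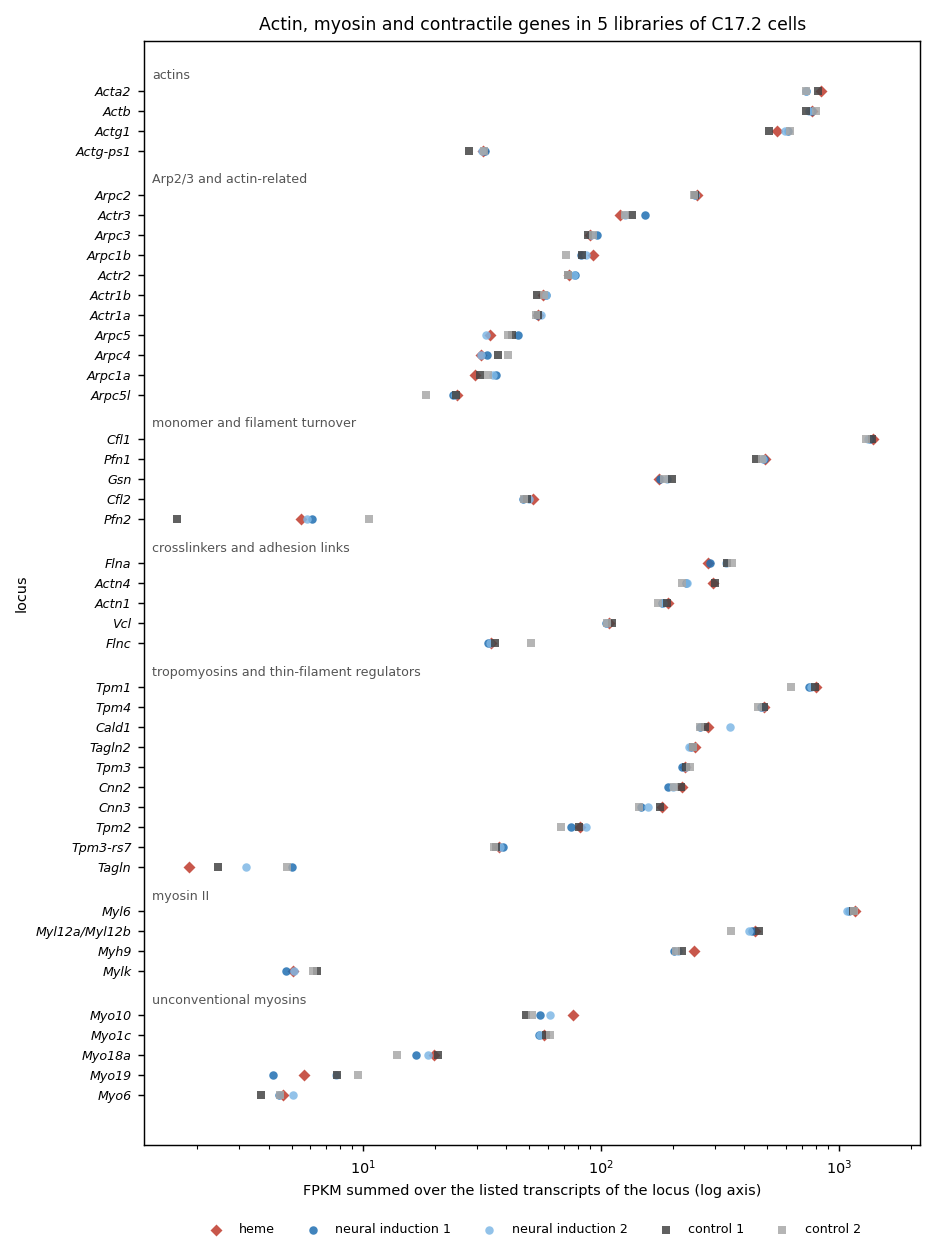
FPKM per locus on a log axis for 44 of the 46 loci, grouped by role and ordered by mean level, with 1 point per library (heme, neural induction 1 and 2, control 1 and 2). For most loci the 5 points lie on or near each other, and the widest scatter is at Pfn2 and Tagln, which are among the least abundant.

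The actins come first. Actb and Actg1 encode the beta and gamma cytoplasmic actins, and Acta2 the alpha actin of smooth muscle. The coding sequences of Actb-201 (chr5:142903115-142906754, GRCm38) and Actg1-204 (chr11:120345691-120348091) have 1128 bases each and share 1000 of them (88.65%), and each shares less with Acta2-201 (82.8% for Actb, 81.48% for Actg1). The first 30 coding bases of the cytoplasmic pair are shown, with the 8 positions where the pair differs in capitals:
Actb-201: atggaTgaCgaTatcgcTgcGctGgtcGtC
Actg1-204: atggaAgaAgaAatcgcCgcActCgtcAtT

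Acta2 (chr19:34241090-34255336) stood at 844 FPKM in the heme library, 729.6 and 729.7 FPKM after neural induction, and 817 and 725 FPKM in controls. The heme library and control replicate 1 were high and the other 3 close together, so heme lay above both controls and the neural induction values lay between them. Actb was at 767 FPKM under heme, 772 and 749 after neural induction, and 729 and 798 in controls, with all other values inside the control range. Actg1 was at 547 FPKM under heme, 613 and 595 after neural induction, and 508 and 624 in controls, again inside the control range. Log2 fold changes of heme against control were 0.13 ± 0.10 (SE) for Acta2, 0.0089 ± 0.096 for Actb and -0.042 ± 0.14 for Actg1. After neural induction they were -0.077 ± 0.086, -0.0037 ± 0.079 and 0.10 ± 0.12 in the same order. No actin passed the test (adjusted p in limma from 0.935 to 0.999). The 95% interval for Actb ran from -0.25 to 0.27 under heme and from -0.21 to 0.21 after neural induction, so a change of 1 log2 unit lies outside both. Actg-ps1, annotated as a processed pseudogene of gamma actin on chromosome 8, was listed at 31.9 FPKM under heme, 32.4 and 31.7 after neural induction, and 27.9 and 32.1 in controls. Its reads and those of the actins could be split among near-identical copies, so its level is uncertain.

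Nucleation and branching genes comprised 11 loci. Arpc2, a core subunit that holds the Arp2/3 complex to the mother filament, was the steadiest of all 46 members: it stood at 252 FPKM under heme, 248.6 and 248.5 after neural induction, and 249 and 247 in controls, a highest-to-lowest ratio of 1.02. Its fold change was 0.025 ± 0.074 under heme and 0.0033 ± 0.060 after neural induction. Actr2, which encodes the actin-related protein Arp2, was at 73.1 FPKM under heme, 77.5 and 77.2 after neural induction, and 72.8 and 72.5 in controls. Actr1a, the filament subunit of dynactin, was within 53.3 to 55.9 FPKM throughout. The Arp2/3 subunit genes Arpc1a, Arpc3, Arpc5 and Arpc5l ranged over the 5 libraries from 29.4 to 36.3, 88.1 to 96.3, 32.9 to 44.8 and 18.4 to 24.8 FPKM in that order.

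Arpc4, which anchors the complex together with Arpc2, was the one locus of this group at which all 3 treated libraries lay below both controls. It stood at 31.4 FPKM under heme, 33.1 and 31.4 FPKM after neural induction, and 37.0 and 40.5 FPKM in controls, with no overlap. The log2 fold change was -0.29 ± 0.12 under heme and -0.26 ± 0.095 after neural induction, with adjusted p in limma of 0.998 and 0.935, so neither passed. Both comparisons use the same 2 controls. Arpc1b, a subunit with a paralog in Arpc1a, was at 92.7 FPKM under heme, 82.7 and 86.4 after neural induction, and 83.4 and 71.4 in controls (0.26 ± 0.12 under heme, adjusted p = 0.998 in limma; 0.13 ± 0.10 after neural induction, adjusted p = 0.935). Locus sums were also formed with each transcript's FPKM multiplied by its length in kilobases, so that a short transcript does not count for more than the fragments behind it. On this length-weighted scale the Arpc1b fold changes were 0.046 ± 0.090 and 0.068 ± 0.073. Part of its heme level is an unnamed transcript of 211 bases, MSTRG.16472.6, at 10.2 FPKM in the heme library and at most 0.03 FPKM elsewhere. Across the 11 loci, 6 were higher and 5 lower under heme (median log2 fold change 0.0082), and 9 were higher and 2 lower after neural induction (median 0.075).

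Monomer and filament turnover was led by Cfl1, cofilin-1, which severs filaments and was the most abundant member. It was at 1393 FPKM under heme, 1346 and 1330.4 after neural induction, and 1376 and 1298 in controls. Pfn1, profilin-1, which loads monomers for growth, was at 490.4 FPKM under heme, 483 and 479 after neural induction, and 448 and 475 in controls. All 3 treated libraries lay above both controls in FPKM. Length-weighted, Pfn1 was at 458 under heme, 488 in both neural induction libraries, and 455 and 499.7 in controls, so none lay above both controls, and the heme fold change was -0.057 ± 0.087. In FPKM the Cfl1 and Pfn1 log2 fold changes were 0.060 ± 0.092 and 0.088 ± 0.083 under heme, and 0.0023 ± 0.075 and 0.059 ± 0.068 after neural induction, and adjusted p in limma was 0.935 or higher. Cfl2, the cofilin that predominates in muscle, stayed within 47.2 to 51.8 FPKM. Pfn2, the profilin enriched in brain, was the least steady member. It was at 5.50 FPKM under heme, 6.07 and 5.79 after neural induction, and 1.65 and 10.6 in controls. The controls alone spanned the whole range, a ratio of 6.42.

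Crosslinkers and adhesion links held the filamins. Flna, the X-linked filamin that joins filaments into networks and whose loss in human disturbs neuronal migration, was at 282 FPKM under heme, 287 and 334 after neural induction, and 338 and 357 in controls. All 3 treated values lay below both controls, with the log2 fold change at -0.30 ± 0.12 under heme (95% interval -0.61 to 0.019) and -0.17 ± 0.097 after neural induction. Flnc, the filamin of striated muscle, was at 34.5 FPKM under heme, 33.5 and 34.1 after neural induction, and 35.8 and 50.5 in controls (-0.29 ± 0.22 and -0.32 ± 0.18). For both Flna and Flnc the treated libraries lay below both controls, and neither passed (adjusted p in limma 0.998 under heme and 0.935 after neural induction). For Flnc most of the difference came from control replicate 2: without it the log2 fold change was -0.051 under heme and -0.079 after neural induction.

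Actn1 and Vcl, alpha-actinin-1 and vinculin of focal adhesions, differed little. Actn1 was at 192 FPKM under heme, 181 and 183 after neural induction, and 189 and 173 in controls (0.087 ± 0.090 and 0.0086 ± 0.073). Vcl was at 108 FPKM under heme, 104.7 and 105.5 after neural induction, and 111 and 106 in controls (-0.0040 ± 0.082 and -0.046 ± 0.067). Neither passed (adjusted p in limma 0.935 or higher). The actin crosslinker Actn4 had 2 levels that did not follow the conditions: 296 FPKM under heme and 302 in control replicate 1, against 228 and 229 after neural induction and 219.8 in control replicate 2.

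Tropomyosins and filament-coating proteins numbered 10 loci, and here the transcripts show which forms the cells make. Tropomyosin genes use alternative first exons, so that long forms begin with one exon and short cytoskeletal forms with another. The first 30 coding bases of the named transcripts sort them, with the start codon in capitals:
Tpm1 long form and Tpm2: ATGgacgccatcaagaagaagatgcagatg
Tpm1 short form: ATGgcgggtagcagctcgctggaggcggtg
Tpm3 short form: ATGgccgggaccaccaccatcgaggcggta
Tpm4 short form: ATGgccggcctcaactcactggaggcagtg
The long start was found in 7 Tpm1 transcripts of 846 to 981 coding bases and both coding Tpm2 transcripts of 855 bases, letter for letter the same in both genes. The short Tpm1 start was found in 3 transcripts of 738 to 747 coding bases, and the listed Tpm3 and Tpm4 coding transcripts, of 747 bases each, begin with starts of their own.

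Tpm1 long forms summed to 697 FPKM under heme, 661 and 686 after neural induction, and 708 and 556 in controls, whereas its short forms summed to 23.4 FPKM under heme, 24.8 and 22.3 after neural induction, and 16.7 and 18.0 in controls. Long forms were therefore 96.4% to 97.7% of the sorted Tpm1 FPKM in every library. The low value of the long forms was in control replicate 2, and the short forms were higher in all 3 treated libraries than in both controls. Among short forms Tpm4 was the most abundant, at 484 FPKM under heme, 471 and 477 after neural induction, and 486 and 455 in controls. Tpm3 short forms were at 74.4 FPKM under heme, 101 and 75.2 after neural induction, and 73.2 and 72.0 in controls. These sums hold named coding transcripts only. At Tpm3 and Tpm2 the transcript with most FPKM was unnamed in all 5 libraries, so it could not be sorted.

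**Figure D2:**
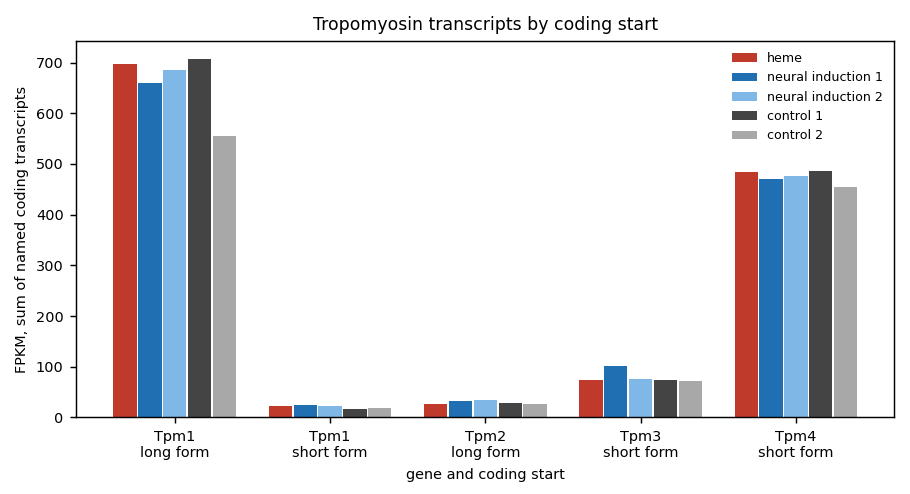
Summed FPKM of the named coding tropomyosin transcripts, sorted by the first coding bases into long and short forms, with 1 bar per library (heme, neural induction 1 and 2, control 1 and 2). The Tpm1 long forms and Tpm4 stand far above the other classes in all 5 libraries, and control 2 has the lowest Tpm1 long-form bar at 556 FPKM.

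Whole-locus Tpm1 was at 798 FPKM under heme, 746 and 762 after neural induction, and 793 and 627 in controls (0.18 ± 0.16 and 0.096 ± 0.13). Tpm2 was at 81.7 FPKM under heme, 74.4 and 86.5 after neural induction, and 80.9 and 68.0 in controls (0.14 ± 0.16 and 0.11 ± 0.13). Cald1, caldesmon, which blocks myosin from coated filaments, was at 281 FPKM under heme, 262 and 347 after neural induction, and 274 and 261 in controls (0.072 ± 0.18 and 0.17 ± 0.15). In FPKM neural induction replicate 2 alone stood above the rest. Length-weighted, Cald1 was at 907 under heme, 810.4 and 763 after neural induction, and 891 and 717 in controls, so that library was not the highest (0.18 ± 0.16 and -0.023 ± 0.13). Adjusted p in limma was 0.935 or higher for all 3. Tpm3-rs7, a Tpm3-related sequence on chromosome 14, was within 35.5 to 38.5 FPKM, and reads it shares with Tpm3 make that level uncertain.

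Tagln, transgelin or SM22, a smooth muscle marker, was low, unlike Acta2: it was at 1.85 FPKM under heme, 5.04 and 3.20 after neural induction, and 2.46 and 4.78 in controls. The heme library had the lowest value, and both other groups were spread widely (-0.65 ± 0.50 under heme and 0.17 ± 0.41 after neural induction, adjusted p in limma 0.998 and 0.968). Its relative Tagln2 was far higher and flat, at 249 FPKM under heme, 238 and 234 after neural induction, and 243.0 and 243.4 in controls. The calponins Cnn2 and Cnn3, which bind actin and damp myosin activity, lay within 192 to 218 and 144 to 180.4 FPKM over the 5 libraries.

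Myosin II was represented by 4 loci. Myl6, the essential light chain of non-muscle and smooth muscle myosin, was at 1171 FPKM under heme, 1101 and 1084 after neural induction, and 1149 and 1154 in controls. The neural induction pair lay below both controls and the heme library above them. The joined Myl12a/Myl12b locus, encoding regulatory light chains, was at 445 FPKM under heme, 432 and 419 after neural induction, and 463 and 351 in controls. Mylk, the myosin light chain kinase that switches the motor on, was low, at 5.08 FPKM under heme, 4.73 and 5.14 after neural induction, and 6.36 and 6.14 in controls, below both controls in all 3 treated libraries. Myh9, the heavy chain of non-muscle myosin IIA, was at 245 FPKM under heme, 203 and 211 after neural induction, and 219 and 206.5 in controls. Heme lay above the other 4 libraries (0.20 ± 0.084 against control, adjusted p = 0.998 in limma). After neural induction the fold change was -0.039 ± 0.069 (adjusted p = 0.957).

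The heme excess of Myh9 sat in 1 short transcript. Myh9-202, annotated as a target of nonsense-mediated decay and 1191 bases long, was at 40.4 FPKM under heme, 0.029 and 0 after neural induction, and 0 in both controls. The full-length coding Myh9-201 was at 203 FPKM under heme, 202 and 209.8 after neural induction, and 215 and 206 in controls. On the length-weighted scale Myh9 was at 1559.9 under heme, 1499 and 1560.0 after neural induction, and 1598 and 1529 in controls, and its heme fold change was -0.0031 ± 0.078. The scale was chosen after the transcript values had been seen.

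Unconventional myosins included the member locus with the smallest p under heme. Myo10, the motor that carries cargo to the tips of filopodia and is known for a part in axon outgrowth, stood at 76.0 FPKM under heme, 55.6 and 61.1 FPKM after neural induction, and 48.4 and 51.4 FPKM in controls. Heme was the highest library, neural induction lay between, and no group overlapped another. The log2 fold change was 0.60 ± 0.11 under heme (95% interval 0.31 to 0.89, adjusted p = 0.708 in limma) and 0.22 ± 0.088 after neural induction (adjusted p = 0.935). Length-weighted, Myo10 was at 371 under heme, 347 in both neural induction libraries, and 359 and 316 in controls, and the fold change was 0.14 ± 0.10 and 0.044 ± 0.084. Myo1c, a motor that links membranes to actin, was at 57.5 FPKM under heme, 55.0 and 55.6 after neural induction, and 58.5 and 61.1 in controls. Myo19, the motor bound to mitochondria, was at 5.62 FPKM under heme, 4.16 and 7.68 after neural induction, and 7.77 and 9.55 in controls. All 3 treated values lay below both controls, but the neural induction pair differed by more than the gap to the nearest control. Myo6, the motor that walks toward the minus end, lay within 3.73 and 5.06 FPKM.

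Heme against control called 0 of 46 member loci in limma at an adjusted p below 0.05, in either direction. Over all 7039 loci 0 were called higher (0%) and 3 lower (0.0426%), so the test made almost no calls anywhere. At an unadjusted p below 0.05 there were 1 member (Myo10) and 253 of all loci; length-weighted there was no such member. The heme value lay above both controls for 21 of 46 members (45.7%), against 25.5% of all loci, and below both for 13 (28.3%), against 31.1% of all loci. By fitted sign 30 were higher and 16 lower, with a median log2 fold change of 0.037 over members and -0.0035 over all loci. Beside these counts, control replicate 2 was the lowest of the 5 libraries for 18 members (39.1%, against 32.3% of all loci). It was the highest for 10 (21.7%, against 28.2% of all loci). The heme library was the highest for 15 (32.6%, against 13.7% of all loci) and the lowest for 6 (13.0%, against 20.7%).

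Neural induction against control also called 0 of 46 member loci in limma, against 0% of all loci higher and 0.0142% lower. At an unadjusted p below 0.05 there were 1 member (Arpc4) and 215 of all loci; length-weighted there was also 1 such member. Both neural induction libraries lay above both controls for 7 members (15.2%; 18.2% of all loci) and below both for 12 (26.1%; 13% of all loci). The medians were 0.011 over members and 0.019 over all loci. Heme against neural induction called 0 of 46 (0.0142% of all loci higher and 0.0426% lower), with 2 members, Myo10 and Myh9, at an unadjusted p below 0.05 and none length-weighted.

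A null call has limits of its own. The 95% interval of the fold change had a median half-width of 0.30 log2 units for heme and 0.25 for neural induction, and it lay within ±1 log2 unit for 43 of 46 members in each comparison. The exceptions, Pfn2, Tagln and Myo19, are among the least abundant. Length-weighted, the interval lay within ±1 log2 unit for 41 of 46 members under heme and 43 after neural induction. Under heme Arpc5 (-1.05 to 0.39) and Myo18a (-0.35 to 1.19) were then exceptions as well. Changes of 1 log2 unit thus lie outside the intervals of most members. The limit of 1 was a chosen one, and for many members smaller changes lie outside the interval as well. Changes inside a member's interval could not be resolved with these 5 libraries.

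**Figure D3:**
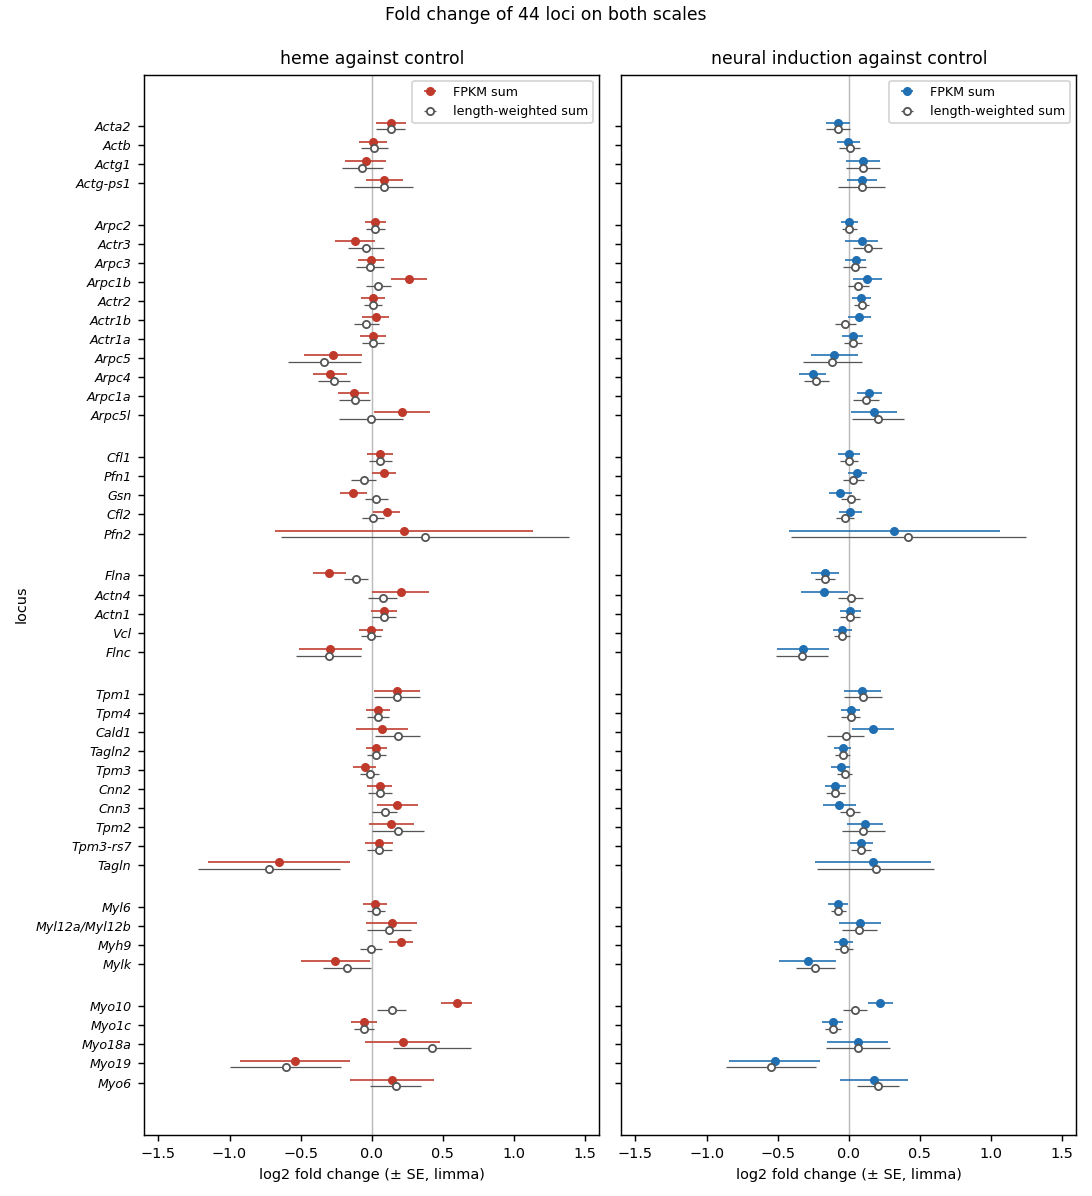
Log2 fold change of 44 of the 46 loci against control with its standard error from limma, for heme (left) and neural induction (right), from FPKM sums (filled) and from length-weighted sums (open). Most points lie within 0.3 of 0 on both scales, and the rightmost heme point, Myo10 at 0.60, is at 0.14 when length-weighted.

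The transcripts within a locus varied more than the locus did. Of the 32 member loci with at least 2 listed transcripts, the most abundant transcript was not the same one in all 5 libraries at 12 (37.5%), against 2414 of 3964 such loci in the whole table (60.9%). At several loci the changes of lead transcript did not follow the groups. They fell in a single library, as at Cnn3, or in the second library of each pair, as at Actr3 and Cald1. At Actr3, the gene of the Arp3 subunit, Actr3-201 was at 111 FPKM under heme, 111 and 1.64 after neural induction, and 98.0 and 0.0025 in controls. Its partner Actr3-202 was at 6.94 FPKM under heme, 31.6 and 120.0 after neural induction, and 24.0 and 115 in controls. Both transcripts carry 1257 coding bases, and the split separated the second library of each pair from the other 3. The locus sum for Actr3 was 120.0 FPKM under heme, 153 and 126 after neural induction, and 135 and 126 in controls.

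Actn4 showed the same kind of split with another grouping. Actn4-206, annotated as a processed transcript, was at 121 FPKM under heme, 0.017 and 0 after neural induction, and 126 and 0.010 in controls. The coding Actn4-201 was at 129 FPKM under heme, 209 and 213 after neural induction, and 128 and 191 in controls. Length-weighted, Actn4 was at 871 under heme, 827 and 840.0 after neural induction, and 881 and 775 in controls, without the 2 levels of the FPKM sums. MSTRG.18115.6, an unnamed transcript at the same locus, was at 13.3 FPKM under heme, 0.689 and 0.548 after neural induction, and 12.6 and 16.2 in controls (-3.24 ± 0.39 after neural induction, adjusted p = 0.339 in limma), low in both neural induction libraries alone.

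Myo10 was split over 3 coding transcripts of unequal length. Myo10-202, with 6189 coding bases the one that encodes the longest protein, was at 3.94 FPKM under heme, 10.8 and 10.3 after neural induction, and 41.9 and 11.6 in controls. Myo10-201, with 3951 coding bases and a later start, was at 44.4 FPKM under heme, 43.3 and 39.4 after neural induction, and 0 and 35.6 in controls. Myo10-211, with 2359, was at 27.6 FPKM under heme, 1.45 and 11.4 after neural induction, and 6.44 and 4.14 in controls. Control replicate 1 stood alone in having its FPKM on the longest form, and the heme library in its level of the shortest. At Cnn3, control replicate 1 was also alone: Cnn3-201 was at 57.3 FPKM under heme, 39.5 and 41.6 after neural induction, and 119.9 and 44.8 in controls, and the retained-intron transcript Cnn3-207 at 95.8 under heme, 105 and 109.7 after neural induction, and 36.3 and 97.6 in controls.

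**Figure D4:**
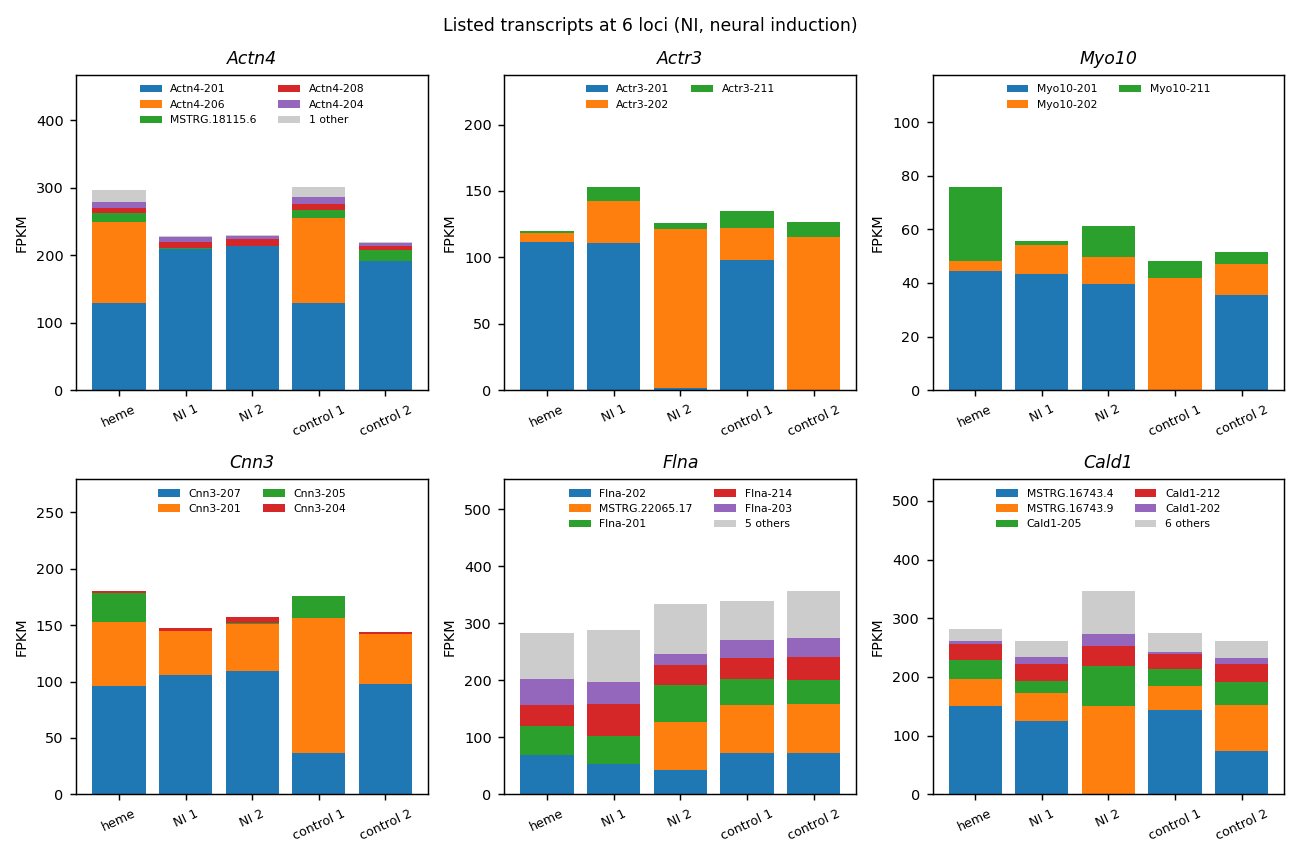
Stacked FPKM of the listed transcripts at Actn4, Actr3, Myo10, Cnn3, Flna and Cald1 in each of the 5 libraries (NI, neural induction). The stacks change composition between libraries of the same group, as at Actr3, where Actr3-202 holds 120.0 FPKM in NI 2 and 31.6 in NI 1, more than they change in height.

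Among the 139 member transcripts tested, limma called 0 in each comparison. Of all 13737 transcripts, heme against control called 0% higher and 0.0728% lower, and neural induction against control 0% higher and 0.00728% lower. At an unadjusted p below 0.05, 4 member transcripts were higher and 9 lower under heme, beside 264 and 416 of all 13737. After neural induction 2 were higher and 3 lower, beside 359 and 325 of all. The smallest p under heme belonged to MSTRG.3311.3, an unnamed transcript of 2789 bases at the Pfn1 locus. It was at 0.764 FPKM under heme, 19.3 and 19.8 after neural induction, and 17.5 and 23.5 in controls (-3.59 ± 0.30, adjusted p = 0.106 in limma), so the heme library stood apart from all 4 others. Gsn-203, 1 of 5 listed transcripts of gelsolin, a calcium-dependent severing protein, was at 18.1 FPKM under heme, 27.7 and 34.2 after neural induction, and 40.4 and 41.0 in controls (-1.12 ± 0.18, adjusted p = 0.371). The whole gelsolin locus was at 175 FPKM under heme, 178 and 189 after neural induction, and 199 and 183 in controls.

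At Myo18a, a myosin-like gene, the heme library again stood apart in its transcripts. The unnamed MSTRG.3448.2 was at 18.7 FPKM under heme, 2.53 and 2.71 after neural induction, and 2.46 and 2.02 in controls (2.61 ± 0.53, adjusted p = 0.559 in limma). Myo18a-205 was at 1.06 FPKM under heme, 8.59 and 9.21 after neural induction, and 17.9 and 7.29 in controls (-2.60 ± 0.63, adjusted p = 0.706). The locus sum was 19.8 FPKM under heme, 16.7 and 18.8 after neural induction, and 20.6 and 13.9 in controls.

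At Actr1b, the second dynactin actin-related gene, the heme and neural induction libraries had one transcript balance and both controls another. Actr1b-201 was at 4.48 FPKM under heme, 5.46 and 3.75 after neural induction, and 16.7 and 18.4 in controls (-1.76 ± 0.38 and -1.74 ± 0.31, adjusted p in limma 0.615 and 0.465). The unnamed MSTRG.199.1, nearly the same in length and position, was at 40.4 FPKM under heme, 40.6 and 40.3 after neural induction, and 28.5 and 30.6 in controls (0.44 ± 0.13 and 0.44 ± 0.10, adjusted p in limma 0.849 and 0.648). The locus as a whole was at 56.8 FPKM under heme, 58.5 and 58.9 after neural induction, and 53.8 and 57.6 in controls. The 2 comparisons share their controls.

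At Flna, 2 unnamed transcripts with the same ends, MSTRG.22065.16 and MSTRG.22065.17 (chrX:74236081-74246364), varied within groups. MSTRG.22065.17 was at 0 FPKM under heme, 0 and 83.5 after neural induction, and 85.3 and 87.3 in controls. MSTRG.22065.16 was at 0.058 FPKM under heme, 36.8 and 8.31 after neural induction, and 0.144 and 0.073 in controls (4.08 ± 0.87 after neural induction, adjusted p = 0.555 in limma). Flna-202, with 7920 coding bases, was at 69.8 FPKM under heme, 53.7 and 43.5 after neural induction, and 72.3 and 71.7 in controls (-0.56 ± 0.13 after neural induction, adjusted p = 0.623). Length-weighted, the whole locus was at 1578 under heme, 1462 and 1573 after neural induction, and 1702 and 1705 in controls, and the fold change was -0.11 ± 0.083 under heme, less than from FPKM, and -0.17 ± 0.068 after neural induction.

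The authors' deposited table for heme called 9 of 147 member transcripts higher (6.12%; 3.49% of all transcripts) and 11 lower (7.48%; 3.75%), at a Benjamini-Hochberg adjusted p below 0.05 computed from its p-values. The authors' deposited table for neural induction called 5 higher (3.4%; 3.55%) and 10 lower (6.8%; 3.65%). The fold changes in both tables lay within 0.1 log2 units of the ratio of replicate 1 to control replicate 1 for 100% of the 6751 and 6746 transcripts with at least 5 FPKM in both libraries, so these calls compare 2 libraries and not the conditions. Some fall on the exchanges described above: in the authors' deposited table Myo10-201 has a log2 fold change of 8.47 under heme and 8.43 after neural induction, both set by its 0 in control replicate 1. Myh9-202 has 8.33 under heme in the authors' deposited table, and Actn4-206 has -9.81 after neural induction.

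Other genes of the pathway were taken from 2 lists. Of 59 listed regulators and partners of actin (small GTPases, kinases, formins, capping and bundling proteins) 47 were measured. Under heme 29 were higher and 18 lower, with a median log2 fold change of 0.026, and after neural induction 24 were higher and 23 lower, with a median of 0.00083. None was called, and none had an unadjusted p below 0.05 in limma, in either comparison. The second list, mostly of genes known to respond to SRF coactivators or to the related regulator YAP, held 27 names. Some genes are in it under both an older and a newer name, so it holds fewer genes than names. Of these names 18 were measured, among them the SRF coactivators Mkl1 and Mkl2 themselves. Under heme 4 were higher and 14 lower (median -0.038, 1 at an unadjusted p below 0.05), and after neural induction 5 were higher and 13 lower (median -0.21, 3 at an unadjusted p below 0.05), with none called in limma. Over all 7039 loci 3463 were higher and 3569 lower under heme (median -0.0035, 253 at an unadjusted p below 0.05), and 3851 higher and 3188 lower after neural induction (median 0.019, 215 at an unadjusted p below 0.05). Some of these genes stood out in control replicate 2. Cyr61, a matricellular YAP target, was at 202 FPKM under heme, 172 and 162 after neural induction, and 184 and 284 in controls, and Ctgf at 184 under heme, 153 and 146 after neural induction, and 162 and 213 in controls. Thbs1, thrombospondin-1, was lowest there, at 364 FPKM under heme, 327 and 313 after neural induction, and 346 and 207 in controls. Ankrd1, another YAP target, was at 52.7 FPKM under heme, 46.6 and 47.0 after neural induction, and 54.1 and 54.9 in controls.

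Promoters were searched for the CArG box, the element that SRF binds, because several members are known SRF targets. RefSeq promoters (GRCm38.p6, 300 bases around each gene start) were found for 40 of 47 member names. The box, whose pattern reads the same on both strands, was present in 5 of 50 member promoters (10%) and in 535 of all 32851 (1.63%). It was the only motif searched. The 5 boxes are shown with their flanks upstream of the RefSeq gene start, 5′ to 3′ on the strand of the gene and with the box in capitals:
Actg1, chr11:120348551-120348610, minus strand: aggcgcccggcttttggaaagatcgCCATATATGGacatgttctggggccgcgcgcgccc
Cnn2, chr10:79988519-79988578, plus strand: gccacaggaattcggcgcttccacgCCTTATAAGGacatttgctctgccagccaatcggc
Myl6, chr10:128493025-128493084, minus strand: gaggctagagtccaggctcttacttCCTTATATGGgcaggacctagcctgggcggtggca
Vcl, chr14:20929148-20929205, plus strand: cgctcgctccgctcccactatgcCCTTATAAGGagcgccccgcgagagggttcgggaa
Arpc4, chr6:113377863-113377897, plus strand: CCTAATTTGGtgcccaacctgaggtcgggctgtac
The boxes begin at -90, -56, -50, -227 and -250 relative to the RefSeq gene start in that order. The Myl6 stretch lies inside the span of the listed Myl6 transcripts (chr10:128490860-128493875). It is therefore not upstream of the start of the transcripts measured here. The 5 genes did not share a direction: under heme Cnn2 (0.057) and Myl6 (0.024) had positive log2 fold changes, and Actg1 (-0.042), Vcl (-0.0040) and Arpc4 (-0.29) negative ones, none past the test. After neural induction Actg1 (0.10) was positive, and Cnn2 (-0.096), Myl6 (-0.076), Vcl (-0.046) and Arpc4 (-0.26) were negative. A match is a description of these letters and not a shown binding site.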

How the data were processed

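RNA from C17.2 cells was sequenced from TruSeq libraries, per the labels' protocols. HISAT2, StringTie and edgeR were used on GRCm38 (mm10), per the submitters' processing notes, without versions. For 15113 assembled transcripts the authors deposited FPKM and coverage (signal, mean reads per base) in 1 table. Per the file headers, their comparison tables hold log2 fold changes, likelihood ratio scores and p-values. No count model was fitted and no counting interval was formed, since FPKM are not counts and counts were not rebuilt from the coverage.

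FPKM was summed per StringTie locus. limma 3.58.1 (R 4.3.3; lmFit, contrasts.fit, eBayes with trend) was fitted on log2(FPKM + 1) over 7039 loci, and likewise 13737 transcripts, reaching 1 FPKM in 2 or more libraries. The 5 libraries in 3 groups left 2 residual degrees of freedom. Two-sided p-values were adjusted by Benjamini-Hochberg over all features tested (threshold 0.05), and the fit was tested on simulated data. The log2 scale with 1 added understates changes of low genes. The design text calls the replicates biological, but nothing says that they came from separate cultures, so p-values measure the spread between these samples. Transcript types, coordinates and coding sequences come from GENCODE M21 (120 of 120 named member transcripts found, 112 with the same ends), and promoters from RefSeq.

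The members, lists and tests were chosen with earlier results of these data known. Named were 14 listed genes of a fixed 18 and, for each comparison with control, the 5 loci and 5 transcripts of smallest p with a mean of at least 5 FPKM; 2 loci that this rule named are not reported here; other names were chosen after their values were seen, and are given by level. Alternatives were pseudocount, filter, median scaling, the mean of both heme columns, a replicate block, named transcripts only and leaving out each control or neural induction library; length-weighted sums (FPKM times transcript length) were added after seeing the data. Python 3.11.15 with pandas 2.3.3, Biopython 1.88 and matplotlib 3.10.9 was used for the rest.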

Additional observations from a re-analysis of the deposited data

How the results depend on the processing

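Under every alternative run, 0 member loci and 0 member transcripts were called in limma. Over all features the counts called (3 loci under heme, 1 after neural induction and 4 between heme and neural induction; 10, 1 and 11 transcripts) moved by more than 1.5 times as follows. Neural induction loci were 0 with a pseudocount of 0.1 and 0 without a filter. Named transcripts only, and length-weighted sums, gave 0 loci in each comparison (unadjusted p below 0.05 for 270, 236 and 254 loci, and for 288, 218 and 255). Without a filter the transcripts called were 6 under heme and 0 after neural induction. Leaving out any 1 control or neural induction library (the lone heme library was not left out) gave 0 (range 0 to 0) at both levels with 1 residual degree of freedom, while 192 to 1268 loci and 645 to 1463 transcripts had an unadjusted p below 0.05. Over locus sums the replicate numbers did not pair the samples (deviations of the control and neural induction pairs correlated at -0.051). Pairing of single transcripts was not tested, and those of Actr3 and the lead transcript of Cald1 split by replicate number. The replicate block gave 2 loci after neural induction and turned Actg1 under heme to 0.021. It gave 0 transcripts in each comparison (593, 503 and 579 at an unadjusted p below 0.05).

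No member had a direction past the threshold, and 377 of 392 fold changes of named members under settings other than leaving out a library kept their sign. Signs turned for Arpc2 (-0.013), Actn1 (-0.0077) and Cfl1 (-0.014) after neural induction under median scaling. With the mean of both heme columns, which moved the median of all loci to 0.23, they turned for Actg1 (0.18), Vcl (0.27), MSTRG.18115.6 (0.064) and Flna-202 (0.21) under heme. With named transcripts only they turned under heme for Flna (0.14), Cald1 (-0.22) and Tpm2 (-0.034). Length-weighted, they turned for Pfn1 (-0.057) and Myh9 (-0.0031) under heme and Actb (0.0053) and Cald1 (-0.023) after neural induction. The cause was not tested.

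Leaving out a library kept the sign in 192 of 212 cases. Under heme the log2 fold change ranged from -0.057 to 0.074 for Actb, -0.19 to 0.11 for Actg1, -0.038 to 0.030 for Vcl and -0.27 to 0.064 for MSTRG.18115.6. After neural induction it ranged from -0.16 to 0.0087 for Acta2, -0.069 to 0.062 for Actb, -0.048 to 0.25 for Actg1, -0.053 to 0.071 for Actn1, -0.0036 to 0.010 for Arpc2, -0.033 to 0.37 for Cald1, -0.040 to 0.045 for Cfl1, -0.080 to 0.0019 for Myh9, -0.20 to 0.54 for Tagln, -0.073 to 0.27 for Tpm1, -0.012 to 0.24 for Tpm2, -0.25 to 0.15 for MSTRG.3311.3 and -0.93 to 0.26 for Myo18a-205. Depth was 4.14 to 4.56 gigabases, and without read counts its effect on single low transcripts is not quantified.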
